A study of Drosophila melanogaster with 2 samples.

Results

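The regions described here are 6849 of the 30000 candidate regions listed for the transcription factor kay in Drosophila melanogaster embryos, or 22.8% of them. Each has its summit within 500 bp of protein-coding transcription start sites (TSSs) that all lie on one strand, and none holds a canonical AP-1 site within 50 bp of that summit. The AP-1 site was taken as TGACTCA or TGAGTCA, read on both strands, with all 7 letters inside the window. Of the 30000 candidates, 9196 had their summit within 500 bp of a protein-coding TSS, 7017 of these had TSSs on a single strand, and leaving out the 168 with an AP-1 site gave the 6849. The choice used no measure of binding strength. The members lay in 5492 clusters of overlapping candidates, and 3165 members overlapped another candidate, so neighbouring members can share the same reads. They were nearest to the TSSs of 4460 genes, 32.0% of the 13945 protein-coding genes on the 6 chromosome arms, and 1630 of these genes had more than 1 member.

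The study was a chromatin immunoprecipitation sequencing (ChIP-seq) experiment on a single group of embryos with 2 biological replicates, labelled 2 and 4. The embryos were whole, of mixed sex and 0 to 24 hours old, and came from a stable transgenic line in which green fluorescent protein is fused to the C-terminus of kay. Chromatin was sonicated to fragments of 200 to 800 bp, and the tagged protein was precipitated with an antibody against the tag. Both replicates carried the transgene, and no untagged embryos are compared here. Whole embryos of this age range mix all tissues and stages, so a strong region in few cells and a weaker one in many cells cannot be told apart. The deposited lists rank regions by a signal value set by the authors' peak caller. The candidate lists are named as peaks and background, and the pooled list and that of each replicate all hold 30000 regions. Weak candidates can therefore be background and no binding of kay, and shares over candidates depend on the length of the list. A shorter list, which passed the irreproducible discovery rate (IDR) procedure for agreement between replicates, holds 3860 regions and is exactly the 3860 strongest candidates by signal. Being in the IDR list is therefore used below as the measure of a strong region. With 1 group there was nothing to test between conditions, so counts and shares are given with exact (Clopper-Pearson) 95% binomial intervals, which cover counting error only, and no difference below was tested.

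kay is the Drosophila Fos protein. It pairs through a leucine zipper with Jra, the Drosophila Jun protein, to form AP-1, which binds the TGACTCA or TGAGTCA site and acts downstream of the JNK pathway in processes such as dorsal closure of the embryo. A promoter that fires in one direction has a core around its TSS, where elements such as the TATA box, the initiator (Inr) and the downstream promoter element (DPE) place the transcription machinery, and a region upstream where other factors bind.

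The sequences of the strongest member and of several promoter elements are shown because the results below turn on where the summit lies relative to such elements. All are read on the strand of the gene, 5′ to 3′, from the RefSeq Release 6 genome in dm6 coordinates, with TSSs from Ensembl release 115. The first pair are the 101 bases centred on the summit of the strongest member, upstream of CG14100 (chr3L:19590583-19590683, minus strand), with a word that differs from the AP-1 site by a single letter in capitals, and of the second strongest, upstream of Galphai (chr3L:6980049-6980149, minus strand), where no such word was found. Neither window overlaps an annotated untranslated region.
CG14100 summit: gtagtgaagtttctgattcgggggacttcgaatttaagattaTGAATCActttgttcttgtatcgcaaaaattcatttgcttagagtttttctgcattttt
Galphai summit: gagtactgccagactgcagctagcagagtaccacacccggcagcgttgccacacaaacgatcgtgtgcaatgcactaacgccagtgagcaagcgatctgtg
The next lines show, with the element in capitals, the Inr of MFS10 (chrX:13131507-13131536, plus strand), the DPE of PAN3 (chr3L:3081588-3081617, plus strand), the GAGA element of gish (chr3R:16280810-16280868, plus strand) and the cyclic AMP response element (CRE) of Ist1 (chr3L:6756484-6756513, minus strand). These elements were more frequent at the promoters of the strong members.
MFS10 Inr: ttgccagtccgTCAGTctgcgctggttccc
PAN3 DPE: gcactgccgctCGGTTcgtggcgcgatcga
gish GAGA: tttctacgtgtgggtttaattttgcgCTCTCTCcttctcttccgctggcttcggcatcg
Ist1 CRE: cacactgcacgTGACGTCAcattgtttttt
The last lines show Motif 7 of CG33169 (chr3L:22863760-22863819, plus strand), paired CAGCTG words (Motif 5) of CG1635 (chr3R:31588618-31588672, plus strand) and the TATA box of Hsp27 (chr3L:9384009-9384062, plus strand), the last an element that was less frequent at the promoters of the strong members. The shown stretches of gish, CG33169, CG1635 and Hsp27 lie upstream of the TSS.
CG33169 Motif 7: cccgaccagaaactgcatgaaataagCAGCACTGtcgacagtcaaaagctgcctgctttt
CG1635 Motif 5: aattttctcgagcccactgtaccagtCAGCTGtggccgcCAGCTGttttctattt
Hsp27 TATA: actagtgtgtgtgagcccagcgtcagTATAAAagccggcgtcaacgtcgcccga

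Of the 6849 members, 1257 were in the IDR list, which is 18.4% (95% interval 17.4% to 19.3%). Over all candidates the share was 12.9%, and over the 23151 candidates that are no members it was 11.2%. The 1257 made up 32.6% of the IDR list, against the 22.8% of candidates that are members. Members also supplied 33 of the 100 strongest candidates and 353 of the 1000 strongest. The median signal was 45.2 in members and 37.8 in all candidates, whereas within the IDR list members (median 144.1) lay close to the whole list (141.3). By gene, 1096 of the 4460 genes nearest to a member had a member in the IDR list, or 24.6%. Of the 4460 genes, 1630 had 2 or more members and so more chances to be counted. The share by gene is therefore not comparable with the shares of regions above. No such share was computed for genes near other candidates.

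Other kinds of promoter region had higher shares in the IDR list. Divergent promoter regions without an AP-1 site, with TSSs on both strands within 500 bp, had 773 of 2154 regions in the list, or 35.9% (33.9% to 38.0%), an interval that lies wholly above that of the members. One-direction promoter regions with an AP-1 site had 66 of 168, or 39.3% (31.9% to 47.1%). Regions more than 500 bp from any TSS and without an AP-1 site had 1646 of 20247, or 8.13%. Ranking each replicate's own list gave the same order in replicate 2, while in replicate 4 divergent regions stood above those with the site. Among the 3860 strongest regions of the replicate 2 list the share was 18.0% for members, 33.8% for divergent regions and 44.3% for one-direction regions with the site, and in replicate 4 these shares were 19.4%, 40.8% and 35.9%.

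The strongest members lay near genes of very different kinds. The region at CG14100 had a signal of 1653, ranked 4 in the pooled list, 4 in replicate 2 and 3 in replicate 4, and its summit lay 109 bp upstream of the TSS. The nearest AP-1 site was 16040 bp away. The region at Galphai, which encodes an inhibitory G protein alpha subunit used in asymmetric cell division, had a signal of 1440, ranked 6 in the pooled list, 10 in replicate 2 and 4 in replicate 4, and had its summit 55 bp upstream. The region at Ugalt, which encodes a UDP-galactose transporter of the Golgi, had a signal of 1397 and ranked 7 in the pooled list, 8 in replicate 2 and 7 in replicate 4. These 3 regions were among the 10 strongest of each replicate.

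Next in order came mRpL41, a mitochondrial ribosomal protein gene, with a signal of 1166 and a summit 146 bp upstream. Sox14, a gene for an HMG-box transcription factor, had a signal of 1108 and a summit 289 bp upstream, and px, named for its role in wing vein patterning, had a signal of 1056 and a summit 204 bp upstream. ph-p, which encodes a subunit of the Polycomb repressive complex PRC1, had a region with a signal of 1017 whose summit lay 480 bp upstream, near the limit set for a promoter. A second region of ph-p, 370 bp downstream of a TSS of the gene, had a signal of 368.7 and ranked 258. Of the other genes among the first 15, the summit lay 44 bp downstream of the TSS of sqh, which encodes the regulatory light chain of non-muscle myosin II, and 41 bp downstream of a TSS of kay itself. The region at kay had a signal of 948.6 and ranked 24 in the pooled list, 27 in replicate 2 and 23 in replicate 4. kay is also the gene in the tagged transgene, and reads from the native and the tagged copy cannot be told apart in such a list. In 3 of the first 15, an AP-1 site lay just beyond the excluded window, with its centre 53 bp from the summit at CG10527, 58 bp at aqz and 65 bp at sqh.

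**Figure D1:**
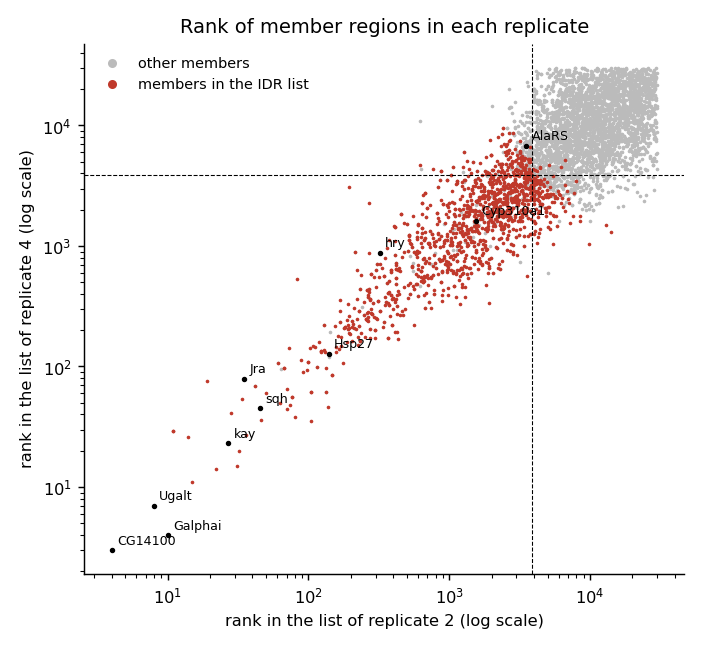
Rank of each member region in the candidate list of replicate 2 (x axis, log scale) and of replicate 4 (y axis, log scale), where rank 1 is the strongest region of a list. Red points are members in the IDR list, grey points are other members, dashed lines mark rank 3860 in each replicate, and black points are named genes, from CG14100 at ranks 4 and 3 to AlaRS, which was not in the IDR list.

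Strength in the 2 replicates was compared by rank, since the scaling of the signal between libraries is not stated. Each member was given the rank of the strongest overlapping region in a replicate's list. Of the 1257 members in the IDR list, 991, or 78.8% (76.5% to 81.1%), overlapped one of the 3860 strongest regions in both replicates, 129 did so in replicate 2 alone, 128 in replicate 4 alone and 9 in neither. As a description across regions, Spearman's rho between the ranks was 0.736 over the 1255 IDR members found in both lists and 0.750 over 5276 members of all strengths. The plot of ranks shows the members of the IDR list filling the corner where both ranks are low. Both replicates went into the IDR list, so these values describe it and are no independent support. Of the members outside the IDR list, 320 overlapped a strong region in both replicates. One is the region at chic, the profilin gene, which ranked 5005 in the pooled list while the strongest regions that overlap it ranked 64 and 95. It was picked out after its values were seen, and it shows that a rank can belong to a stronger neighbour.

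Strong members lay mostly upstream of the TSS. Of the 4213 members with a summit upstream of the nearest TSS, 997, or 23.7% (22.4% to 24.98%), were in the IDR list, and of the 2636 with a summit at or downstream of it, 260, or 9.86% (8.75% to 11.1%), were. The upstream share was above the 12.9% of all candidates and the downstream share below it. The same held for genes on the plus strand, with 23.2% upstream and 9.66% downstream, and for genes on the minus strand, with 24.1% and 10.1%. Seen the other way, 79.3% (77.0% to 81.5%) of the members in the IDR list had an upstream summit, against 57.5% (56.2% to 58.8%) of the other members. Among the 100 strongest members 90 were upstream. In each replicate's own list the upstream share of the strong members was lower than in the pooled list, at 76.8% in replicate 2 and 75.5% in replicate 4, and still above that of the other members.

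The strongest stretch was not at the TSS but some distance before it. The median summit of the members in the IDR list lay 132 bp upstream, with quartiles at 244 and 22 bp upstream, while that of the other members lay 41 bp upstream. In bins of 50 bp, the share in the IDR list peaked at 31.7% (27.4% to 36.2%) for summits 201 to 250 bp upstream, where 140 of 442 members were in the list. It was 28.2% at 151 to 200 bp and 27.9% at 101 to 150 bp upstream, then 22.7% at 51 to 100 bp and 19.4% at 1 to 50 bp upstream. At the TSS it dropped to 10.2% in the first 50 bp downstream. The lowest values were 6.36% at 150 to 199 bp and 6.19% at 200 to 249 bp downstream. Members themselves were most numerous close to the TSS, with 691 at 51 to 100 bp upstream, so the place with the most candidates and the place with the highest share of strong ones differed by more than 100 bp. In wider classes of position, 29.3% of members 101 to 249 bp upstream were in the list, 17.1% of those within 100 bp on either side and 8.84% of those 250 to 500 bp downstream.

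**Figure D2:**
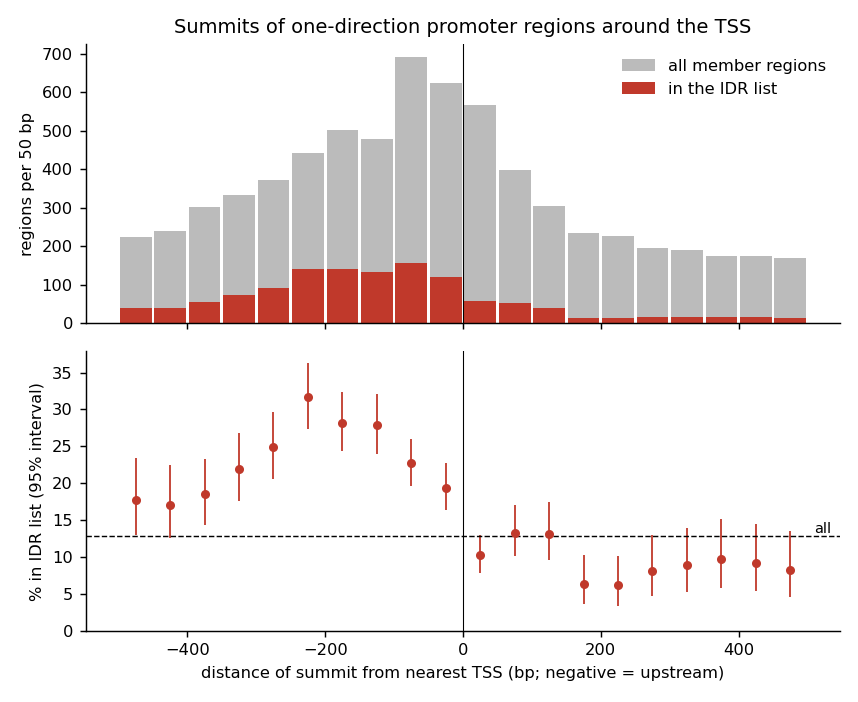
Upper panel: number of member regions per 50 bp (y axis) by distance of the summit from the nearest TSS in bp (x axis, negative values upstream), with all members in grey and those in the IDR list in red. Lower panel: percent of the members of each bin in the IDR list, with exact 95% intervals and a dashed line at the 12.9% of all candidates; the points upstream of the TSS peak at 31.7% and those downstream lie between 6.19% and 13.3%.

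Members near the limit of 500 bp were close to regions just beyond it. Of the members with a summit 451 to 500 bp from the TSS, 52 of 384, or 13.5% (10.3% to 17.4%), were in the IDR list, and of the regions 501 to 550 bp away that met the other conditions, 42 of 338, or 12.4% (9.10% to 16.4%), were. The strongest members with a far upstream summit were those of Sox14, ph-p and CG10527. Far downstream they were the second region of ph-p, CG31523 with a signal of 343.0 and CG31612 with a signal of 292.1. By signal these ranked 99, 115 and 166 among all members.

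One-direction promoter regions that do hold an AP-1 site showed a different position. Of their 66 regions in the IDR list, 37, or 56.1% (43.3% to 68.3%), had an upstream summit and the median lay 20 bp upstream. The interval lies below that of the 79.3% of members. Their 102 other regions had 54.9% upstream, so among regions with the site the strong and the weak ones had nearly the same share upstream. The difference between regions with and without the site was not tested.

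Promoter elements were searched in a fixed window around the nearest TSS, set for each element. The core elements were TATAAA 45 to 20 bp upstream, TCAGT or TCATT within 10 bp of the TSS for the Inr, CGGTT 15 to 45 bp downstream for the DPE, and CTTTCC or CTTTCT or CTTTTC or CTTTTT within 5 bp for the TCT element of ribosomal protein genes, all on the sense strand. The other elements were searched on both strands from 100 bp upstream to 50 bp downstream. They were TATCGATA for the DNA replication-related element (DRE), GGTCACACT for Motif 1, GTATATTT or GTATTTTT for Motif 6, CATCNCTA, CATCNCTG, CAGCNCTA or CAGCNCTG for Motif 7, CAGCTG for Motif 5, CACGTG for the E-box, GAGAGAG for the GAGA element, CAGGTAG for the Zelda site and TGACGTCA for the CRE. Each match is a match of letters anywhere in its window, with no exact position or spacing required, so it need not be a working element. The windows of different elements overlap. Of the 13 elements, 6 were more frequent in members in the IDR list than in the other members.

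The GAGA element, which the GAGA factor binds to keep promoters open, had a higher share in the strong members. It was present at 137 of the 1257 members in the IDR list, or 10.9% (9.23% to 12.7%), and at 363 of the 5592 others, or 6.49% (5.86% to 7.17%), and 4.23% of all 19253 protein-coding TSS positions held it. Of the members with the element, 27.4% (23.5% to 31.5%) were in the IDR list, against 18.4% of all members. The DPE, found at promoters without a TATA box, was at 9.23% (7.69% to 10.96%) of the strong members, 5.88% (5.28% to 6.53%) of the others and 4.48% of all TSS positions. The Inr was at 26.7% (24.3% to 29.3%), 22.8% (21.7% to 23.9%) and 18.9%. For these 3 elements the intervals of strong and other members did not overlap. The size of these differences depended on the rule: with TSSs within 250 bp of the summit, GAGA differed by 1.66 percentage points in place of 4.41, the DPE by 1.8 in place of 3.34 and the Inr by 0.395 in place of 3.95. Without replicate 2 the DPE differed by 2.14 points and the Inr by 1.92. Members with both GAGA and DPE were few, and 16 of 43, or 37.2% (22.98% to 53.3%), were in the IDR list.

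The GAGA and DPE differences were seen mainly where the summit was upstream. Among members with an upstream summit, GAGA was at 11.1% of those in the IDR list and 5.57% of the others, and the DPE at 9.73% and 5.75%. Among members with a downstream summit the shares were 10% and 7.74% for GAGA and 7.31% and 6.06% for the DPE. The Inr had the opposite order downstream, at 19.2% of the strong and 24.2% of the other members. Of all members in the IDR list, 31.0% had their summit within 100 bp of the TSS, so these elements are mostly those of a TSS at some distance from the summit.

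The TATA box, Motif 6 and the DRE had the opposite order. TATA boxes were at 3.34% (2.42% to 4.49%) of the strong members, 5.13% (4.57% to 5.74%) of the others and 7.77% of all TSS positions, and 12.8% (9.36% to 16.9%) of the members with a TATA box were in the IDR list. Motif 6 was at 5.25% and 7.67%, also with intervals that did not overlap, though without replicate 2 the difference of -2.42 points was -0.614. The DRE was at 6.05% (4.79% to 7.51%) and 7.26% (6.59% to 7.97%), with intervals that overlapped. It was at 5.62% and 7.71% among upstream summits, but at 7.69% of the strong and 6.65% of the others among downstream ones. Motif 1, the E-box, the TCT element and the Zelda site each differed by less than 0.6 percentage points between the strong and the other members. Of the 1205 members with at least one of the DRE, Motif 1 and Motif 6, 15.9% (13.8% to 18.0%) were in the IDR list, which is close to the 16.1% of the 2479 members that held none of the 13 elements. Motif 7 was at 15.4% (13.5% to 17.6%) of the strong and 13.1% (12.2% to 14.0%) of the other members, with intervals that overlapped. Motif 5 was at 14.9% and 12.0%, a difference of 2.86 points that was 1.37 without replicate 4.

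The CRE is known to be bound by basic leucine zipper proteins related to AP-1, such as those of the CREB and ATF families. It was rare, at 0.875% (0.438% to 1.56%) of the strong members, 0.232% (0.124% to 0.397%) of the others and 0.244% of all TSS positions. Of the 24 members that held it, 11, or 45.8% (25.6% to 67.2%), were in the IDR list, and the median signal of the 24 was 80.1. The strongest was at Ist1, whose product works with the ESCRT machinery, with a signal of 292.7, a rank of 432 and a summit 14 bp downstream of the TSS. The next was at CG7656, with a signal of 199.1 and a summit 5 bp upstream.

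**Figure D3:**
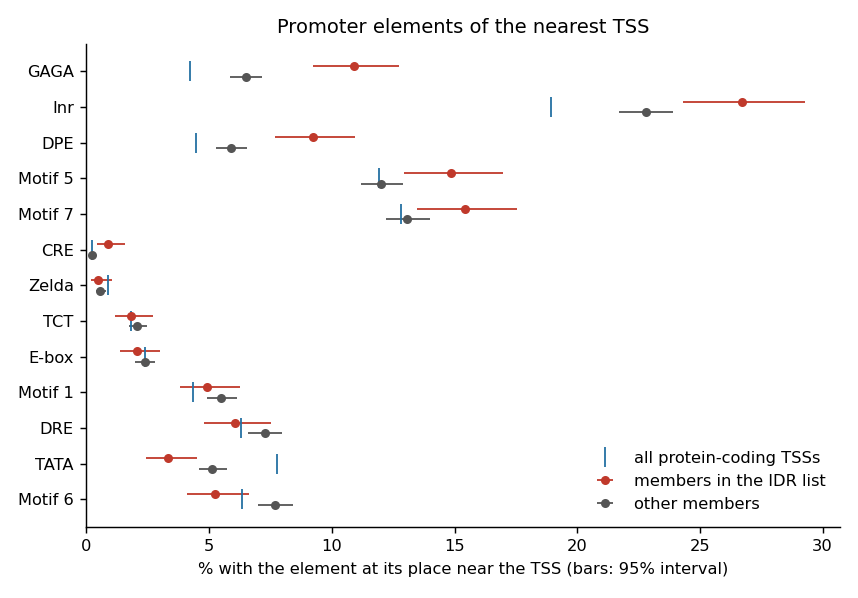
Percent of member regions whose nearest TSS has each of 13 promoter elements in its search window (x axis), for members in the IDR list (red), other members (grey) and all protein-coding TSS positions (blue ticks). Bars are exact 95% intervals. Elements are ordered by the difference between red and grey, from GAGA (10.9% and 6.49%) at the top to Motif 6 (5.25% and 7.67%) at the bottom.

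The letters under the summit itself gave another picture from those at the TSS. Within 50 bp of the summit, Motif 7 was in 104 strong members, or 8.27% (6.81% to 9.94%), and in 303 others, or 5.42% (4.84% to 6.04%). In windows of the same length 300 bp from the summit it was in 3.70% and 3.27%. The DRE was in 2.70% and 2.40% under the summit and in 0.636% and 0.885% beside it, so both strong and other members held it more often under the summit than beside it. GAGA was the reverse in the strong members, at 2.47% under the summit and 4.53% beside it. Among members with Motif 7 under the summit, 25.6% (21.4% to 30.1%) were in the IDR list. The CRE was under the summit in 9 strong and 17 other members, or 0.716% and 0.304%.

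Words close to the AP-1 site were only slightly more common under strong summits. A word that differs from TGACTCA or TGAGTCA by 1 letter, on either strand, was within 50 bp of 18.9% (16.8% to 21.2%) of the summits in the IDR list and 16.2% (15.2% to 17.2%) of the others, with 14.96% and 13.9% in the windows beside them. With A or T in the middle, TGAATCA or TGATTCA was at 3.42% (2.49% to 4.58%) and 2.02% (1.67% to 2.42%), and beside the summit at 1.75% and 1.49%. The strongest member, at CG14100, is one that holds it. These words leave more than 80% of the strong members without an AP-1 site or a near match in the window.

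Full AP-1 sites outside the window of the rule were also counted. Of the 122 members whose nearest site had its centre beyond the rule's window and up to 100 bp from the summit, 33, or 27.1% (19.4% to 35.8%), were in the IDR list. The share was 30.5% (23.7% to 37.9%) where the nearest site was 101 to 200 bp away, 22.2% at 201 to 300 bp, 14.4% at 301 to 500 bp and 18.9% at 501 to 1000 bp. Of the 5624 members with no site within 1000 bp, 1001, or 17.8% (16.8% to 18.8%), were in the IDR list, so most strong members had none that near. Per 50 bp of sequence and 100 regions, the members in the IDR list had 1.27 sites at 51 to 100 bp, 1.09 at 101 to 200 bp, 0.716 at 201 to 300 bp, 0.398 at 301 to 400 bp and 0.338 at 401 to 500 bp from the summit. The other members had 0.751, 0.577, 0.536, 0.590 and 0.393 at these distances. The strong members thus had the higher density up to 300 bp from the summit and the lower one beyond. Their values rest on 32, 55, 36, 20 and 17 sites, with no interval computed, so the order beyond 300 bp is uncertain.

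Base composition differed between strong and other members. The 101 bases around the summit had a median GC content of 37.6% in members in the IDR list and 40.6% in the others. Of the 1199 members under 30% GC, 342, or 28.5% (25.98% to 31.2%), were in the IDR list, and in each of the 4 classes above 35% GC the share was between 14.8% and 16.0%. Members under 30% GC had an upstream summit in 83.7% of cases, against 49.2% of members over 50% GC, so composition and position move together. Among upstream summits the share in the IDR list was 31.8% under 30% GC and 21.2% over 50%, and among downstream summits it was 11.7% and 9.89%. In every GC class the share was higher for upstream than for downstream summits.

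The share also differed with the chromosome arm, the length of the gene and its number of TSSs. It was 21.8% (19.7% to 23.9%) on arm 3R, between 16.8% and 18.6% on arms 2L, 2R, 3L and X, and 4.90% (1.61% to 11.1%) on the small chromosome 4, with 5 of 102 members. Genes shorter than 1.5 kb had 12.9% (10.9% to 15.1%) of their members in the IDR list and the 4 classes of longer genes between 18.4% and 20.1%. Genes with a single TSS had 16.2% and those with more had 19.4% to 20.7%. Svil, the supervillin gene, had the most members of any gene, with 17 near 13 TSSs, 3 of them in the IDR list, and Rtnl1, a reticulon gene, had 4 of 9 in the list. These genes were picked out by their number of members.

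Genes were grouped into 24 classes by symbol, and of these 9 had a share in the IDR list above the 18.4% of all members. Most classes are small and their intervals wide. Only members were counted, so a gene without a member in the list can have another kind of region there. Heat shock proteins and chaperonins, which fold other proteins, had 9 of 20 regions in the list, or 45% (23.1% to 68.5%), the highest share of any class with 5 or more regions, and a median signal of 89.4. The 9 regions belonged to 9 of the 13 genes with a member. Hsp27, a small heat shock protein gene, had a signal of 517.5, ranked 126 in the pooled list, 139 in replicate 2 and 128 in replicate 4, and had its summit 173 bp upstream, beyond its TATA box. Its neighbour Hsp26 had a signal of 233.6 and a summit 103 bp upstream. Hsp83, the Hsp90 gene, had a signal of 165.8 and a summit 107 bp downstream, and the chaperonin subunit genes CCT6, CCT2, CCT5 and CCT8 had summits 361, 397, 70 and 104 bp downstream. Every IDR member of the 4 CCT genes was thus downstream of the nearest TSS, where 9.86% of all members were in the list. Hsc70-4, the main constitutive Hsp70 gene, had a signal of 90.5, and Hsp23 and Hsp22 had 44.95 and 44.7. All 3 were below the lowest signal in the IDR list, 93.6.

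The JNK and AP-1 pathway had 9 of 28 regions in the list, or 32.1% (15.9% to 52.4%), at 6 of 16 genes. Both partners of AP-1 were among them. Jra had a signal of 725.9, ranked 53 in the pooled list, 35 in replicate 2 and 79 in replicate 4, with a summit 124 bp downstream and an AP-1 site 120 bp from it. puc, which encodes the phosphatase that JNK signalling induces and that switches the kinase off, had a region with a signal of 542.1 and a summit 282 bp upstream. Atf3, a basic leucine zipper gene, had a signal of 519.1 and a summit 248 bp upstream. aop, an ETS-family repressor gene, and Traf4, an adaptor gene, were nearer to the limit of the list, with 107.3 and 98.1. No member near a kinase gene of the pathway was in the list. The strongest member of msn had a signal of 75.1 and that of Tak1 65.7. That of hep, the JNK kinase, had 35.8 and that of bsk, JNK itself, 35.6. egr, the TNF ligand upstream of JNK, had 93.5 and ranked 3863, which made it the strongest member outside the IDR list. Adk2, with 93.6 and rank 3856, was the weakest inside it.

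Actin and myosin machinery had 11 of 42 regions in the list, or 26.2% (13.9% to 42.0%), at 8 of 19 genes. After sqh came Rho1, the small GTPase that acts on myosin, with a signal of 371.8 and a summit 127 bp downstream, and jar, a myosin VI gene, with 331.9 and a summit 455 bp upstream. cpb, a capping protein gene, had 195.1, tsr, the cofilin gene, had 171.0, Moe, the moesin gene, had 166.6, Arpc4, of the Arp2/3 complex, had 154.2 and Act5C had 127.0. The strongest summits of these 8 genes lay on both sides of the TSS, 4 upstream and 4 downstream. The strongest member of zip, the heavy chain partner of sqh, had 61.1 and was not in the list.

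Among genes of protein synthesis, translation initiation factors had 6 of 20 regions in the list, or 30% (11.9% to 54.3%), led by eIF6 with a signal of 626.8 and ranks of 137 in replicate 2 and 46 in replicate 4. Cytoplasmic ribosomal proteins had 14 of 66, or 21.2% (12.1% to 33.0%), none of them among the strongest: RpL23A was first with 218.4 at rank 833. All 14 had summits upstream of the TSS, from 7 bp at RpL30 to 128 bp at RpS5a. Mitochondrial ribosomal proteins had 3 of 17, with mRpL41 standing far above the class median of 36.4. Aminoacyl-tRNA synthetases had 0 of 9, and their strongest region, at AlaRS, had a signal of 91.1 at rank 4023.

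The JNK, actin and protein synthesis classes above all had intervals that include the 18.4% of all members. So did most other classes of widely used genes. Vacuolar proton pump subunits had 4 of 18 regions in the list, or 22.2% (6.41% to 47.6%), with Vha16-1 at a signal of 344.6, and Rab GTPases, which direct membrane traffic, had 4 of 19, or 21.1% (6.05% to 45.6%), with Rab5 at 245.6. General transcription factors had 2 of 8 (3.19% to 65.1%), with Taf4 at 243.7, and the Mediator had 1 of 9 (0.281% to 48.2%), with MED4 at 173.2. Proteasome subunits had 2 of 12 (2.09% to 48.4%), with Rpn11 at 142.4, and kinesins had 1 of 7 (0.361% to 57.9%), with Klp68D at 125.4. Subunits of the respiratory chain and ATP synthase had 0 of 41, whose upper 95% limit is 8.60%, below the 18.4% of all members. The strongest of the 41, at ND-B22, had a signal of 71.0. Nucleoporins had 0 of 5, with Nup358 at 81.4. Over the 13 classes of widely used genes together, 46 of 251 regions, or 18.3% (13.7% to 23.7%), were in the list, close to the share of all members.

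Genes of restricted expression supplied few of the strong members. Over 7 such classes 2 of 65 regions, or 3.08% (0.375% to 10.7%), were in the IDR list, an interval below that of all members. Both were cytochrome P450 genes, with 2 of 32, and the stronger was Cyp310a1 with a signal of 158.2 and a summit 495 bp upstream. Cuticle proteins had 0 of 9, chemoreceptors 0 of 8, accessory gland proteins 0 of 7, odorant binding proteins 0 of 6, antimicrobial peptides 0 of 2 and chorion and vitelline membrane proteins 0 of 1. Their strongest regions were Cpr65Au with a signal of 34.1, Ir31a with 57.2, Acp76A with 44.8, Obp99b with 73.3, Drsl5 with 40.9 and Vm32E with 40.4. Of the 504 genes in the 7 classes 54 were nearest to a member, and of the 561 in the widely used classes 183 were. Over all 13945 protein-coding genes, 4460, or 32.0%, were. Hox and segmentation genes, which pattern the embryo, had 3 of 22 regions in the list, or 13.6% (2.91% to 34.9%). These were at hry, a pair-rule repressor gene, with a signal of 291.9, lab, a Hox gene, with 209.8, and bcd, the maternal anterior determinant, with 155.3. The adhesion genes of the dpr and DIP family had 1 of 2, with dpr2 at 117.9.

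**Figure D4:**
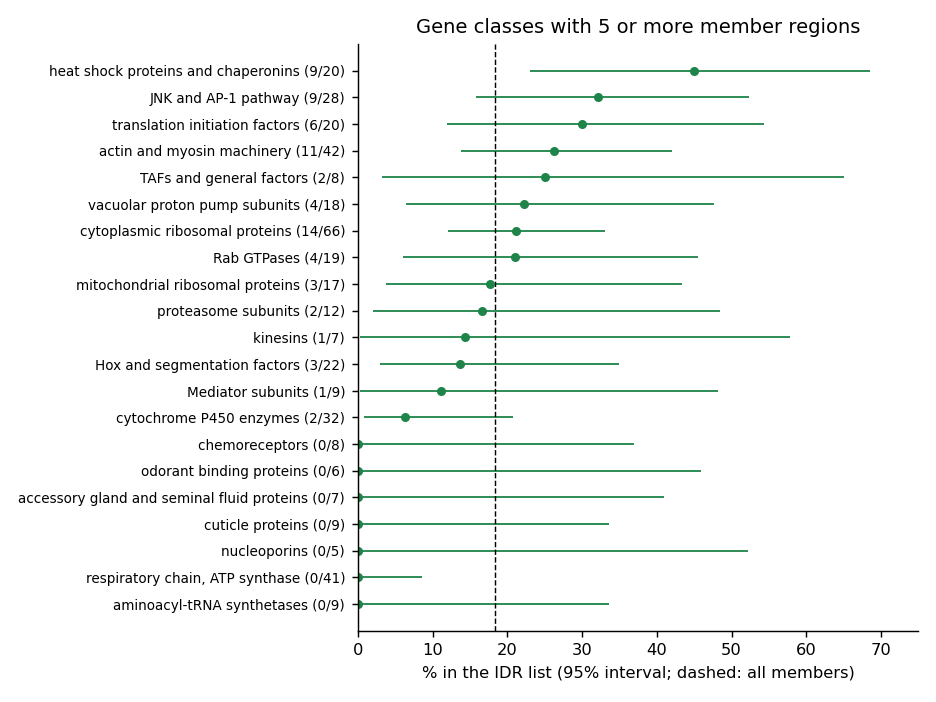
Percent of the member regions of each gene class that were in the IDR list (x axis), with exact 95% intervals, for the classes with 5 or more regions; regions in the list and all regions of the class stand beside each name. The dashed line is the 18.4% of all members; heat shock proteins and chaperonins (9 of 20) lie highest and respiratory chain subunits (0 of 41) are the largest class at 0.

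Several genes led their element rather than their class. The strongest Motif 6 holders in the IDR list were Hpf1, which encodes a cofactor of poly(ADP-ribose) polymerase, with a signal of 483.3, and osp with 454.8. pnut, a septin gene, led those with Motif 1 at 451.5, followed by CG1142 at 418.7. mrj, a DnaJ-family chaperone gene, led those with a TCT element at 536.2, followed by cbt, a zinc finger factor gene, at 374.2. Tina-1 and CG1888 led those with a DPE, at 719.2 and 636.4. Dph1, of diphthamide synthesis, and CG14968 led the 6 strong members with a Zelda site at 310.2 and 251.2, and CG17646 followed Ist1 among those with an E-box at 240.8. For each of these elements the leading regions had upstream summits, apart from that of Ist1.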

How the data were processed

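kay was profiled by ChIP-seq in 2 replicates of 1 group of embryos. Per the labels and the deposited descriptions, candidate lists were made from each replicate's alignments, or both pooled, with a control file, and the IDR list from these candidate lists. The signal in each list was deposited by the authors. Its scaling and the aligner and peak caller behind it were not given in the sources used here. The lists give no read counts, so depth is unknown. The dm3 lists were not used.

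Coordinates are 1-based in dm6. Summits were placed by protein-coding TSSs (Ensembl release 115) on the 6 arms of the RefSeq Release 6 sequence, whose lengths match dm6. A region is in the IDR list where start, end and summit are the same. Overlap means at least 1 bp. Strong regions of a replicate are its 3860 strongest. Distance to an AP-1 site runs from its centre to the summit. Signals were compared only within a list. Python 3.11.15, numpy 2.4.6, pandas 2.3.3, scipy 1.17.1 and matplotlib 3.10.9 were used, and the scripts were tested on simulated data. The alternatives tried varied the windows around the TSS and summit, the letters, the list, the overlap, the TSSs and the replicates. Members, elements and gene classes were chosen with earlier results of these data known.

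Genes were named as the nearest gene of the 15 strongest members (1 per gene), of the strongest member of each class, of the 2 strongest IDR members with each element, and of the 3 strongest members 250 to 500 bp upstream and downstream. Other members of the classes with the most regions in the list, and the sequences shown, which are of the strongest or second strongest holders on arms other than 2R, were added after values were seen. Genes whose symbols match a class by prefix alone (Cyp1, Cyp40, Rab3-GAP, Rab3-GEF, Rab3GAP1, TfIIS, Acp1 and Acp65Aa) were removed from it, also after values were seen.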

Additional observations from a re-analysis of the deposited data

How the results depend on the processing

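The share of members in the IDR list (18.4%) was 20.9% with TSSs within 250 bp and 15.7% within 1000 bp. With either replicate left out it was 18.0% to 19.4%. In these settings the share over all candidates is 12.9% by construction, since each takes the 3860 strongest of 30000 regions. With a replicate left out, the values are those of the other replicate's own list, with no IDR procedure behind them. The share of members was 22.0% with the strongest region of each cluster and 24.3% by overlap with an IDR region. With the strongest 50% of the IDR list in its place it was 9.42%. A shorter list lowers the share of all candidates as well as that of members. For the cluster, overlap and shorter-list settings the share over all candidates is not given. Their values therefore do not show whether members stood further above all candidates. The upstream share of the strong members (79.3%) was 73.7% within 1000 bp, 83.4% in the strongest 50%, 75% by overlap, 74.2% with the most upstream TSS of each gene and 75.5% to 76.8% with either replicate left out. Their share within 100 bp of the TSS (31.0%) was 46.2% within 250 bp, 23.4% within 1000 bp, 27.0% in the strongest 50% and 31.6% to 35.4% with either replicate left out. The 78.8% strong in both replicates was 67.6% by summits within 100 bp. The cause was not tested. The numbers of elements (6) and classes (9) above the rest were 6 to 9 and 9 to 11, with 8 to 9 elements and 11 classes when either replicate was left out.

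Motif 7 and the CRE were more frequent, and Motif 6 less frequent, in the strong members under all 12 alternatives. The alternatives count largely the same regions again, so they are not 12 separate results. For the CRE they rest on 4 to 15 strong members each. Other elements changed the sign of their difference, strong minus other members in percentage points. With letters within 50 bp of the summit TATA gave 2.08, DPE -2.72, DRE 0.309, Motif 5 -0.686, E-box 0.164 and GAGA -0.252. With letters anywhere within 100 bp of the TSS Inr gave -0.0211, TCT 2.00, E-box 0.0305 and Zelda 0.00871. TCT gave 0.0264 within 250 bp, 0.187 within 1000 bp, 0.0665 with the most upstream TSS and 0.31 to 0.39 with either replicate left out. Motif 1 gave 0.12 within 1000 bp and -1.01 to 0.666 with either replicate left out, where the E-box gave -0.407 to 0.373 and Zelda -0.0972 to 0.0155. Zelda gave 0.0882 in the strongest 50%. The cause was not tested.

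Ranks of the 54 named regions in single replicates stayed on the same side of rank 3860 in 103 of 106 cases. These regions were picked by signal in the list pooled from the same replicates, so this count does not describe members at large. No paired analysis was possible because all libraries belong to a single group. No read depth is known, and members that overlap share reads, so the intervals do not cover the spread between embryos.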

Other observations

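Words of 8 letters within 50 bp of the summit were screened after the data had been seen, both strands counted together. Of 28338 distinct words in the members in the IDR list, 46 were in at least 20 of them and more than 2 times as frequent as in the other members. CACTGTGC, which is none of the elements searched, was at 32 of the strong members (2.55%) and 50 of the others (0.894%), and 39.0% (28.4% to 50.4%) of the members that held it were in the IDR list. Among strong regions of replicate 2 it was at 2.21% against 0.778% of the rest, and in replicate 4 at 2.13% against 0.818%. Both replicates went into the IDR list on which the word was chosen, so their values describe it and are no independent support. The strongest genes with the word were sowah, ph-p and Fhos. CAGCACTG, a form of Motif 7, was at 30 strong members (2.39%) and 42 others (0.751%), with 1.66% against 0.744% in replicate 2 and 2.13% against 0.875% in replicate 4. Without this word, 74 of the 335 members with Motif 7 under the summit were in the IDR list, against 18.4% of all members. The words were together at 4 members, all of them in the IDR list. Both words were chosen by their frequency in that list, so this count is no support either. AT-rich words such as AATTATTA, at 3.10% and 1.48%, were also among the 46. No word was tested.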
